A study of Mus musculus with 6 samples.

Results

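The genes described here encode 8 subunits of AP-1, the dimeric transcription factor built from Jun, Fos and Atf or Batf proteins. Jun, Junb, Jund, Fos, Fosb, Fosl2, Atf3 and Batf were found by symbol through their Ensembl identifiers among 30409 genes, and all 8 were measured. RNA-seq came from cells of C57BL/6 mouse bone marrow sorted for LT-HSCs (long-term haematopoietic stem cells) by the gate Lineage-Sca1+cKit+CD34-Flk2-. The 4 groups were wild type at steady state, Twist1 cKO (a conditional knockout of the basic helix-loop-helix factor gene Twist1) at steady state, wild type 12 days after irradiation, and Twist1 cKO 12 days after irradiation, with 1 library in each. The labels do not give the Cre line, the radiation dose, or the number, age and sex of the mice. No difference below has a replicate check, so no test between groups was run. Intervals are exact 95% intervals from recovered reads and cover counting error only.

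AP-1 proteins bind DNA as pairs through a basic region and a leucine zipper. Jun proteins can pair with each other or with a Fos protein, whereas Fos proteins need a Jun partner. Growth factors, cytokines and stress induce Fos, Fosb, Jun, Junb and Atf3 within minutes to hours through MAP kinases, and their mRNAs are short-lived, which is why they are called immediate early genes. Among blood-forming cells, JunB is known for restraining stem cell proliferation, and Batf for pairing with Jun proteins in lymphoid and dendritic cells.

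The values are FPKM (fragments per kilobase of gene, scaled to the size of the library), which can be compared between genes because they are set per length. Reads recovered in genes ranged from 20345483 to 25099735 per library. Twist1 itself was near absent everywhere, with 6 and 2 reads at steady state and 5 and 0 reads after irradiation (wild type first in each pair), too few for a check of the deletion. Of 19 LT-HSC genes, 0 lay below 1 FPKM in either steady-state library, and 13 and 11 did so in the irradiated wild-type and cKO libraries. The irradiated libraries therefore lacked most defining transcripts of the labelled cell type. Xist and the Y-linked Ddx3y also separated the libraries by irradiation (Ddx3y 10.2 and 12.4 FPKM at steady state, 0.0521 and 0.0164 FPKM after irradiation), so irradiation, the sex-linked difference and any batch cannot be told apart. In sorted bulk RNA, fewer cells of a type and less RNA per cell cannot be told apart either.

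At steady state Fos was the most abundant of the 8 transcripts. Fos (ENSMUSG00000021250, GRCm38.p6 chromosome 12, 85473890 to 85477274), the founding Fos protein gene, had 1508 FPKM in the wild-type library and 1894 FPKM in the cKO library, ranks 29 and 14 among all genes. After irradiation it had 192 FPKM in the wild type and 308 FPKM in the cKO, ranks 617 and 267. Both irradiated libraries thus lay far below both steady-state libraries, and the cKO library was the higher of each pair.

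Junb (ENSMUSG00000052837, chromosome 8, 84976909 to 84978748) came second at steady state. It had 1018 and 954 FPKM before irradiation and 263 and 201 FPKM at day 12, wild type first in each pair. Here the wild-type library was the higher of each pair. Jun (ENSMUSG00000052684, chromosome 4, 95049036 to 95052222), which encodes the strongest activator of the Jun proteins, had 159.8 and 328 FPKM before irradiation and 37.8 and 55.5 FPKM at day 12. For Jun the cKO library was higher in both conditions, opposite to Junb. Jund (ENSMUSG00000071076, chromosome 8, 70697739 to 70700616), usually the least inducible Jun gene, had 103 and 129.7 FPKM before irradiation and 23.2 and 27.0 FPKM at day 12.

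The other Fos genes among the members were scarce. Fosb (ENSMUSG00000003545, chromosome 7, 19302696 to 19310118), a close relative of Fos, had 7.25 and 6.16 FPKM before irradiation and 0.485 and 0.867 FPKM at day 12. Fosl2 (ENSMUSG00000029135, chromosome 5, 32136472 to 32157840), which encodes Fra-2, a Fos protein without the strong activation domain of Fos, had 4.13 and 3.41 FPKM at steady state. After irradiation it had 0.0606 and 0.0969 FPKM, from 13 and 22 reads. Fosb and Fosl2 were below 1 FPKM in both irradiated libraries, where no other subunit gene was.

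The last 2 members stood apart by how little they varied. Atf3 (ENSMUSG00000026628, chromosome 1, 191170296 to 191183333), a stress-induced bZIP gene whose product often represses, had 13.1 FPKM in each steady-state library and 18.6 and 13.2 FPKM after irradiation. Only the irradiated wild-type library was away from the other 3, whose intervals overlapped. Batf (ENSMUSG00000034266, chromosome 12, 85686720 to 85709087) had 59.4 and 59.3 FPKM before irradiation and 38.7 and 33.4 FPKM at day 12. Both irradiated libraries were below both steady-state libraries. No other gene of the RefSeq annotation overlaps any of the 8.

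**Figure D1:**
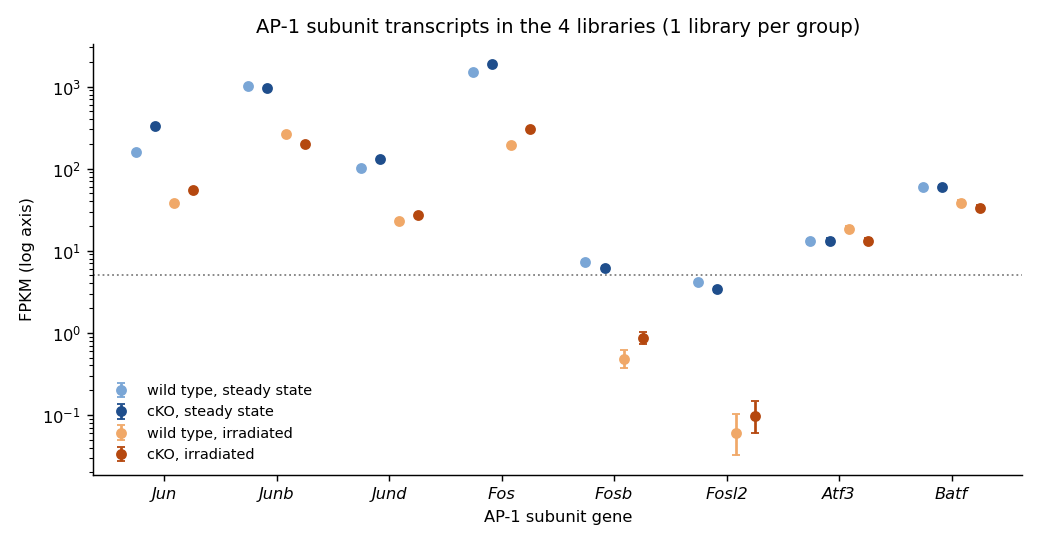
Transcript level of each AP-1 subunit gene in FPKM on a log axis, with 1 point per library and bars for the exact 95% counting interval (smaller than the point where not visible); the dotted line marks 5 FPKM. Fos and Junb lie highest at steady state, the irradiated points of Jun, Junb, Jund, Fos, Fosb and Fosl2 lie well below, and those of Atf3 and Batf lie close to their steady-state points.

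From highest to lowest, the order at steady state was Fos, Junb, Jun, Jund, Batf, Atf3, Fosb and Fosl2 in both genotypes, and no neighbours had overlapping counting intervals. In the irradiated wild-type library Junb was above Fos, and Batf (36.1 to 41.4 FPKM) could not be placed apart from Jun (36.4 to 39.3 FPKM) within counting error. In the irradiated cKO library Fos was again first, and Batf was above Jund but below Jun. Jun, Junb and Jund kept the order Junb, Jun, Jund in all 4 libraries.

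The first comparison set the Twist1 cKO library against the wild type at steady state. Jun was 2.05-fold higher in the cKO library (2.01 to 2.09), a difference of 1.03 in log2(FPKM + 1). A gene was counted as called when it was at least 2-fold apart on that scale and its higher library reached 5 FPKM, and 7 of the 8 members met the minimum, Fosl2 being below it. Jun was the 1 member called higher and none was called lower, beside 0.643% of 7157 genes called higher and 2.70% called lower (3.34% in either direction). Fos and Jund were both 1.26-fold higher in the cKO library (Fos 1.25 to 1.27, Jund 1.22 to 1.30), short of the 2-fold threshold. Junb was slightly lower (1.07-fold, 1.05 to 1.08), and its log2 difference of -0.09 turned to at most 0.11 with other scalings of the libraries. Fosb was 1.18-fold lower (1.08 to 1.28) and Fosl2 1.21-fold lower (1.10 to 1.33). Atf3 and Batf did not differ beyond counting error, with cKO over wild-type ratios within 0.901 to 1.11 for Atf3 and within 0.928 to 1.07 for Batf. The median difference was 0.00 over the 8 members, taken without the minimum, and 0.01 over all genes that met it.

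Markers of other cells differed between these libraries. Of 14 macrophage and monocyte genes, 12 reached 5 FPKM and 8 were called lower in the cKO library, with summed levels of 2866 FPKM in the wild type and 1516 FPKM in the cKO. Of 15 neutrophil genes, 12 reached 5 FPKM and 5 were called higher, with sums of 3237 and 3949 FPKM. None of these genes was at 0. Elane (1007 and 763 FPKM) and Mpo (181 and 157 FPKM) were lower in the cKO, though not called. So were Ctsg (205 and 138 FPKM) and Prtn3 (220 and 182 FPKM). Of 12 erythroid genes that reached 5 FPKM, 4 were called lower. Of 8 such B and plasma cell genes 1 was called lower, with sums of 5768 and 3249 FPKM. Immunoglobulin genes took 16.1% and 10.7% of gene reads. The part of these markers in the Jun difference was not tested.

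The second comparison set the Twist1 cKO library against the wild type after irradiation. Fos was 1.61-fold higher in the cKO library (1.57 to 1.65) and Jun 1.47-fold higher (1.40 to 1.54), log2 differences of 0.68 and 0.54. The median over all 6348 genes was -0.45 and moved to between -0.45 and -0.08 with the scaling. Relative to that median, Fos stood at 1.13, Jun at 0.99 and Jund at 0.66. No member was called in either direction, beside 4.47% of genes called higher and 1.04% called lower (5.51% in either direction). Centring on the median of all genes, leaving out the 50 most abundant genes or scaling to recovered read totals each brought Fos past the threshold. Jund was 1.17-fold higher in the cKO library (1.09 to 1.25). Fosb was 1.79-fold higher (1.32 to 2.44), from 127 against 67 reads, and the reads for Fosl2 did not settle a difference (1.60-fold, 0.770 to 3.45).

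The remaining members were lower in the irradiated cKO library as deposited. Junb was 1.31-fold lower (1.27 to 1.35), at -0.39 and thus 0.06 above the median of all genes, so its direction turned with centring. Atf3 was 1.41-fold lower (1.27 to 1.56), at -0.46 and so 0.01 below that median. Batf was 1.16-fold lower (1.05 to 1.28) and 0.25 above the median. Neutrophil and macrophage markers stood higher in the same library, with 11 of 12 kept neutrophil genes and 7 of 13 kept macrophage and monocyte genes called higher. Sums were 487 and 1497 FPKM for neutrophils and 1385 and 2704 FPKM for macrophages, wild type first. B and plasma cell genes were called higher for 3 of 8 kept, and T and NK cell genes for 4 of 6. Erythroid genes were mixed, with 6 of 14 kept called higher and 1 lower (Car1, 4546 and 1995 FPKM). Of 6 kept dendritic cell and MHC class II genes, 0 were called. The part of these markers in the higher Fos and Jun was not tested.

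**Figure D2:**
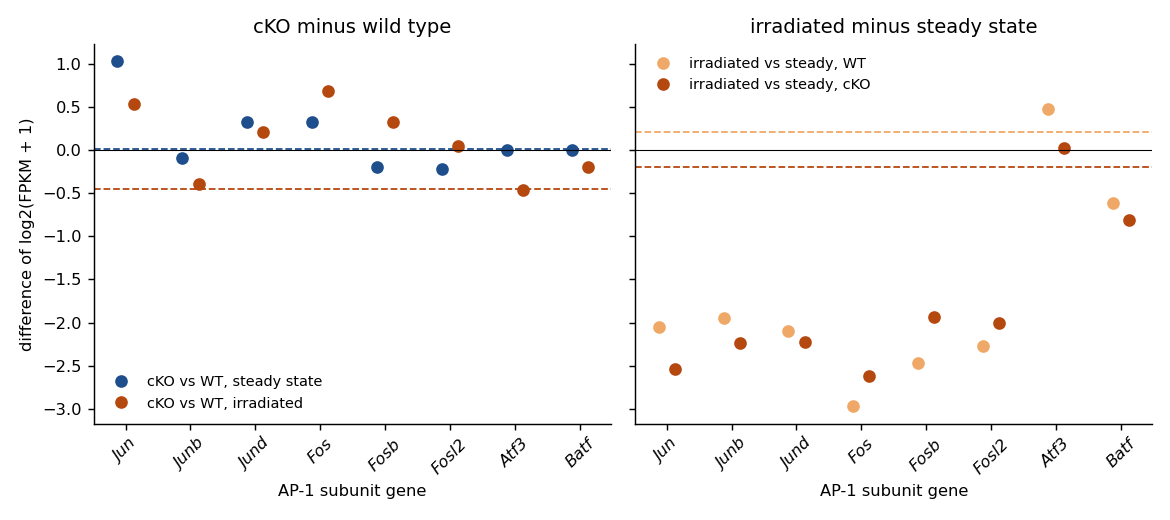
Difference of log2(FPKM + 1) for each AP-1 subunit gene, cKO minus wild type on the left and irradiated minus steady state on the right, 1 point per comparison, with dashed lines at the median of all genes in the comparison of the same colour. Jun is the highest point at steady state on the left at 1.03, and on the right all points except those of Atf3 and Batf lie between -1.94 and -2.97.

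Ratios of 2 subunits within a library do not depend on how libraries are scaled. Junb over Jun was 6.37 (6.25 to 6.50) in the wild type and 2.91 (2.87 to 2.96) in the cKO at steady state. After irradiation the ratios were 6.95 (6.66 to 7.26) and 3.62 (3.49 to 3.76). The ratio was thus 2.19-fold lower in the cKO at steady state and 1.92-fold lower after irradiation. Within a genotype it moved far less with irradiation, 1.09-fold up in the wild type and 1.24-fold up in the cKO. Jund over Jun was also lower in the cKO in both conditions, at 0.395 against 0.643 at steady state and 0.487 against 0.612 after irradiation.

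Fos against its Jun partners behaved otherwise. Fos over Junb was 1.48 (1.46 to 1.497) in the wild type and 1.99 (1.96 to 2.01) in the cKO at steady state. After irradiation it was 0.729 (0.709 to 0.749) in the wild type and 1.54 (1.496 to 1.58) in the cKO. The irradiated wild-type library was the only library of the 4 with less Fos than Junb. Fos over Jun was 9.44 (9.27 to 9.61) in the steady-state wild type and lay between 5.07 and 5.78 in the other 3 libraries. Batf over Atf3 was 4.54 and 4.53 at steady state, with overlapping intervals. After irradiation it was 2.08 (1.89 to 2.28) in the wild type and 2.53 (2.27 to 2.81) in the cKO. Those intervals overlapped only at their edges, which does not settle whether the genotypes differed beyond counting error.

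**Figure D3:**
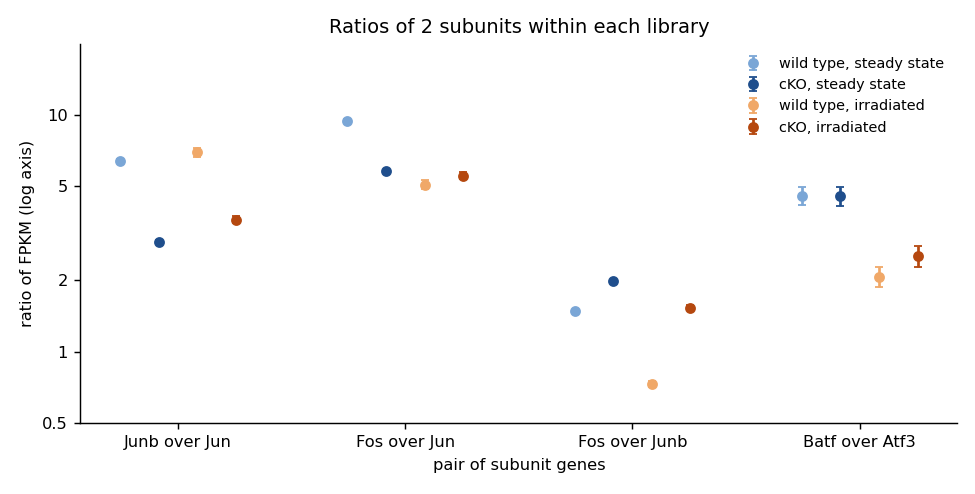
Ratio of the FPKM of 2 AP-1 subunit genes within each library on a log axis, with bars for exact 95% counting intervals. Junb over Jun lies at 6.37 and 6.95 in the wild-type libraries and at 2.91 and 3.62 in the cKO libraries, and Fos over Junb is below 1 only in the irradiated wild-type library.

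The remaining comparisons set irradiated against steady-state libraries in each genotype. Each uses a steady-state and an irradiated library that also enter a genotype comparison, so these values are not independent of those above. Of the 8 members, 7 met the minimum of 5 FPKM, Fosb through its steady-state level alone. Jun, Junb, Jund, Fos and Fosb were called lower and none higher in both genotypes. The background was large: 18.9% of 7418 genes were called lower and 18.9% higher in the wild type, and 22.6% of 7393 genes lower and 10.3% higher in the cKO. The median difference over the 8 members, taken without the minimum, was -2.08 for wild type and -2.11 for cKO. Over all genes that met the minimum it was 0.21 and -0.20.

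Fos was 7.86-fold lower after irradiation in the wild type (7.70 to 8.03) and 6.15-fold lower in the cKO (6.05 to 6.25). The Jun genes had smaller differences in the wild type, 4.22-fold for Jun (4.05 to 4.41), 3.87-fold for Junb (3.79 to 3.95) and 4.44-fold for Jund (4.198 to 4.70). In the cKO, Jun was 5.91-fold lower (5.72 to 6.11), Junb 4.75-fold (4.65 to 4.86) and Jund 4.80-fold (4.56 to 5.05). Of the scarce Fos genes, Fosl2 was 68.1-fold lower in the wild type (39.6 to 128) and 35.2-fold lower in the cKO (23.1 to 56.4), and Fosb 15.0-fold (11.7 to 19.4) and 7.10-fold lower (5.89 to 8.61), the last interval holding the ratio of Fos in the cKO. In log2(FPKM + 1), which shrinks differences of low genes, Fos had larger differences (-2.97 and -2.62) than Fosl2 (-2.27 and -2.01) or Fosb (-2.47 and -1.94). Fosl2 did not meet the minimum of 5 FPKM and was not counted among the calls.

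Batf was 1.54-fold lower in the wild type (1.41 to 1.68) and 1.77-fold lower in the cKO (1.62 to 1.94), under the 2-fold threshold. Atf3 was 1.42-fold higher in the irradiated wild type (1.29 to 1.57) and did not differ beyond counting error in the cKO (1.01-fold, 0.909 to 1.13). Its log2 differences of 0.48 and 0.02 lay 0.27 and 0.21 above the median of all genes. Over 7 alternatives the Atf3 difference ran from 0.15 to 0.99 in the wild type. In the cKO it ran from -0.13, with a scaling that omitted the 50 most abundant genes, to 0.57. The Batf difference ran from -0.94 to -0.07 in the wild type and from -0.96 to -0.22 in the cKO. Cell types shifted beside these differences: 12 of 13 kept LT-HSC genes in the wild type and 13 of 14 in the cKO were called lower, and 13 of 13 and 13 of 14 kept erythroid genes were called higher. Cd34 and Flt3, which the gate selects against, were among the LT-HSC genes called lower in each genotype. Summed erythroid levels were 4131 and 2727 FPKM before irradiation and 13999 and 16942 FPKM at day 12, and summed LT-HSC levels were 925 and 850.5 FPKM and then 121 and 281 FPKM. Neutrophil genes were called lower for 10 of 11 kept (wild type) and 8 of 12 kept (cKO, with 1 higher), and megakaryocyte genes for 5 of 5 in each genotype. B and plasma cell genes were called lower for 7 of 8 and 2 of 8. Of macrophage and monocyte genes, 5 of 13 were called lower and 1 higher in the wild type, against 1 of 13 lower and 7 higher in the cKO. Their part in the lower AP-1 transcripts was not tested.

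Fewer reads thus came from these genes as a group. The 8 members took 0.663% and 0.888% of all gene reads before irradiation and 0.108% and 0.163% at day 12, wild type first. Their summed level was 2873 and 3388 FPKM before irradiation and 574 and 639 FPKM at day 12. Fos and Junb together made up 87.9% and 84.1% of that sum before irradiation and 79.3% and 79.6% at day 12. The share of Fos alone was 52.5% and 55.9% at steady state, 33.4% in the irradiated wild type and 48.2% in the irradiated cKO. Batf made up 2.07% and 1.75% before irradiation and 6.74% and 5.23% at day 12. Jun took a larger share in the cKO library of each condition, 9.68% against 5.56% at steady state and 8.68% against 6.59% once irradiated. Fos-family members (Fos, Fosb and Fosl2) were also summed and divided by the sum of Jun, Junb and Jund. This gave 1.19 and 1.35 at steady state, 0.594 in the irradiated wild type and 1.09 in the irradiated cKO.

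**Figure D4:**
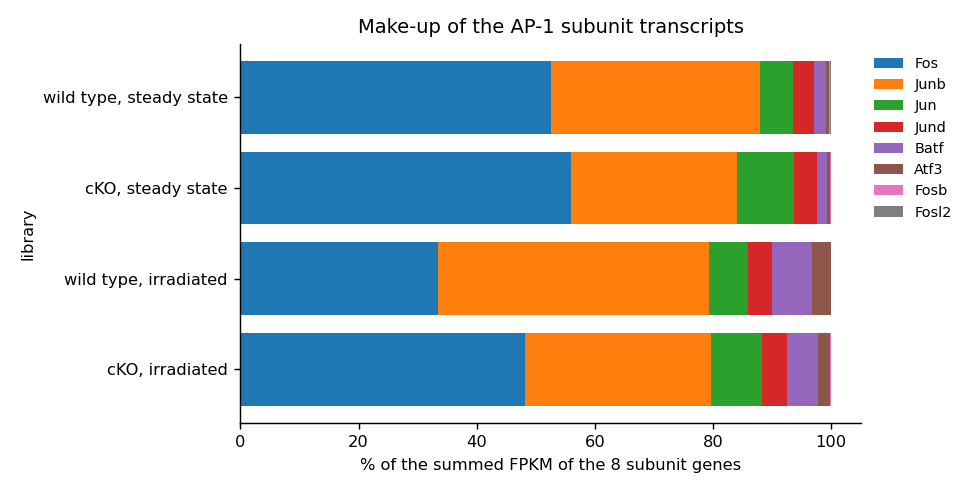
Share of each AP-1 subunit gene in the summed FPKM of the 8 genes, 1 stacked bar per library. Fos fills 52.5% and 55.9% of the steady-state bars and 33.4% of the irradiated wild-type bar, where Junb fills 45.9%.

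Promoter sequences are shown for 3 genes that were lower together after irradiation (Fos, Jun and Junb) and for Atf3, which was not lower. Each is the 250 bases before the RefSeq start of transcription, 5′ to 3′ on the gene's strand in GRCm38.p6. They lie at chr12:85473640-85473889 for Fos on the plus strand, and on the minus strand at chr4:95052223-95052472 for Jun, chr8:84978749-84978998 for Junb and chr1:191183334-191183583 for Atf3. Capitals mark TGACG, the core of the cAMP response element bound by Atf and Creb proteins, and TGACATCA, the variant of that element known from the Jun promoter, on either strand.
Fos promoter: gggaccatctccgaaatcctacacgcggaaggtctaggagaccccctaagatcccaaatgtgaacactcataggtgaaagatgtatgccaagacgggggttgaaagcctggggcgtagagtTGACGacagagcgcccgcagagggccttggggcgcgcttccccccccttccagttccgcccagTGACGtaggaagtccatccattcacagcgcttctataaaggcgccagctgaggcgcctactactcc
Jun promoter: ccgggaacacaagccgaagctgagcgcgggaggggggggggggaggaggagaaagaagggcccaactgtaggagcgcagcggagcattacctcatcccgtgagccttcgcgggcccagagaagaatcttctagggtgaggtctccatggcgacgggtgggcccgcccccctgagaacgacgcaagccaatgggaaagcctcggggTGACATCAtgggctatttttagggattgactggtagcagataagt
Junb promoter: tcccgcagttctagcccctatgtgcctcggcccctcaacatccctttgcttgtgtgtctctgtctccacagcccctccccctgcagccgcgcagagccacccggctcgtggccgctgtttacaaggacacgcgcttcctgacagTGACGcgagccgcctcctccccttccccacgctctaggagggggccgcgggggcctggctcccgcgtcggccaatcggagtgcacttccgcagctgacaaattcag
Atf3 promoter: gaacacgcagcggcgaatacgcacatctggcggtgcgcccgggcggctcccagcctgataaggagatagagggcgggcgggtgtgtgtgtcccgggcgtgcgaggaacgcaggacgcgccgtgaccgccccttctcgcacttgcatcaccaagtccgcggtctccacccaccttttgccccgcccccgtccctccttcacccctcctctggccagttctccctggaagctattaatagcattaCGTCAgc
TGACG was found on either strand before 5 of the 8 starts (Junb, Fos, Fosb, Atf3 and Batf) and in 17.8% of all 32851 RefSeq promoters of this length. Fos held 2 copies, from 129 to 125 and from 66 to 62 bases before its start. Atf3 held its copy on the minus strand, from 7 to 3 bases before its start. TGACATCA was found before 1 member, Jun, from 45 to 38 bases before its start, and in 2.93% of all promoters. The full AP-1 site TGACTCA (4.46% of all promoters) and the full cAMP response element TGACGTCA (1.55%), which contains TGACG, were not in these windows of any member. TATAAA was found before Fos only, from 33 to 28 bases before its start (12.4% of all promoters). Thus TGACG stood both before genes that were lower after irradiation and before Atf3, which was not.

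Genes that act on AP-1 or respond with it were followed in lists, whose counts stand beside the shares of all genes given above: after irradiation 18.9% lower and 18.9% higher in the wild type, 22.6% lower and 10.3% higher in the cKO. In the list of 20 other AP-1 and bZIP partners, 13 reached 5 FPKM in each irradiation comparison, and 6 were called lower for wild type and 5 for cKO, none higher. Cebpb, a bZIP factor of myeloid cells, had 124.5 and 107.8 FPKM before irradiation and 17.6 and 19.8 FPKM at day 12. Jdp2, a repressor that pairs with Jun proteins, had 8.27 and 8.21 FPKM and then 0.600 and 1.70 FPKM. Batf2, a relative of Batf, had 6.69 and 6.83 FPKM and then 0.251 and 1.07 FPKM.

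Of 27 listed kinases and factors upstream of AP-1, 15 were kept, with 4 called lower and 2 higher in the irradiated wild type and 6 lower and none higher in the irradiated cKO (list medians -0.62 and -0.90). In the wild type these counts were near the shares of all genes. Elk3, a serum response cofactor, had 12.1 and 12.4 FPKM before irradiation and 0.457 and 0.750 FPKM at day 12. Rps6ka1, a kinase downstream of ERK, had 24.0 and 26.6 FPKM and then 4.48 and 5.20 FPKM. Mapk3, which encodes ERK1, had 10.01 and 13.4 FPKM and then 3.70 and 2.51 FPKM. None of the list was called between genotypes in either condition.

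Most kept feedback inhibitors of MAP kinases and mRNA decay factors were lower after irradiation. Their medians, over kept genes, stand beside -2.08 (wild type) and -2.11 (cKO) over the 8 subunits, taken without the minimum. Of 18 listed genes 11 were kept, and 9 were called lower in the irradiated wild type and 8 in the irradiated cKO, none higher (medians -2.26 and -2.56). Dusp1, the phosphatase of p38 and JNK, had 502 and 802 FPKM before irradiation and 121 and 169.8 FPKM at day 12, higher in the cKO in both conditions as Jun was. Dusp2 had 146 and 183 FPKM and then 4.55 and 5.68 FPKM. Zfp36, which destabilises short-lived mRNAs, had 324 and 476 FPKM and then 63.8 and 60.4 FPKM. The stress gene Gadd45a was among those not lower, with 10.4 and 10.2 FPKM and then 17.1 and 13.4 FPKM.

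Other immediate early genes shared the lower levels after irradiation. Of 24 listed genes 19 were kept, with 14 called lower for wild type and 15 for cKO, none higher (medians -1.94 and -2.10). Nr4a1, an orphan nuclear receptor gene, had 353 and 441 FPKM before irradiation and 25.8 and 9.03 FPKM at day 12, lower in the cKO where Fos and Jun were higher. Egr1, a zinc finger factor, had 462 and 476 FPKM and then 57.6 and 33.7 FPKM. Klf2 had 39.1 and 70.4 FPKM and then 2.20 and 9.97 FPKM, and Klf6 88.5 and 163 FPKM and then 11.1 and 24.6 FPKM, both higher in the cKO in each condition. After irradiation Klf2 and Klf6 were called higher and Nr4a1 lower in the cKO among 12 kept genes. Nfkbia, the inhibitor of NF-kB, had 333 and 259 FPKM and then 322 and 285 FPKM.

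Of 24 genes known as AP-1 targets, 8 of 14 kept after irradiation were called lower and 2 higher in the wild type, and 8 of 16 lower and 3 higher in the cKO (medians -1.25 and -0.95). The 2 and 3 called higher are too few to set apart from the shares of all genes. The chemokine gene Ccl4 had 220.5 and 391 FPKM before irradiation and 8.14 and 32.0 FPKM at day 12. Ccl3 had 31.7 and 70.8 FPKM and then 3.07 and 13.0 FPKM, so both were higher in the cKO in each condition. Hmox1, the haem oxygenase gene, went the other way at steady state, with 86.2 FPKM in the wild type and 33.5 FPKM in the cKO, and had 65.7 and 112 FPKM at day 12. Between genotypes at steady state 1 of 16 kept genes was called higher and 1 lower. Plaur, the urokinase receptor gene, had 50.1 and 77.7 FPKM and then 2.14 and 3.57 FPKM, whereas Lmna, a nuclear lamin gene, had 8.36 and 7.96 FPKM and then 43.7 and 31.9 FPKM.

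Heat shock genes, which are often read as signs of handling stress together with Fos and Jun, had list medians of 1.03 for wild type and 0.50 for cKO, beside 0.21 and -0.20 over all genes. Of 13 listed genes, 10 were kept for wild type and 11 for cKO, and 5 and 3 were called higher after irradiation, none lower. Hspe1, a mitochondrial co-chaperonin gene, had 188 and 147 FPKM before irradiation and 1193 and 677 FPKM at day 12. The inducible Hspa1a and Hspa1b were low in all 4 libraries, at 0.426 to 1.47 FPKM and 2.18 to 5.63 FPKM. Dnajb1, a further inducible co-chaperone gene, had 99.97 and 123.9 FPKM and then 68.9 and 65.3 FPKM.

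**Figure D5:**
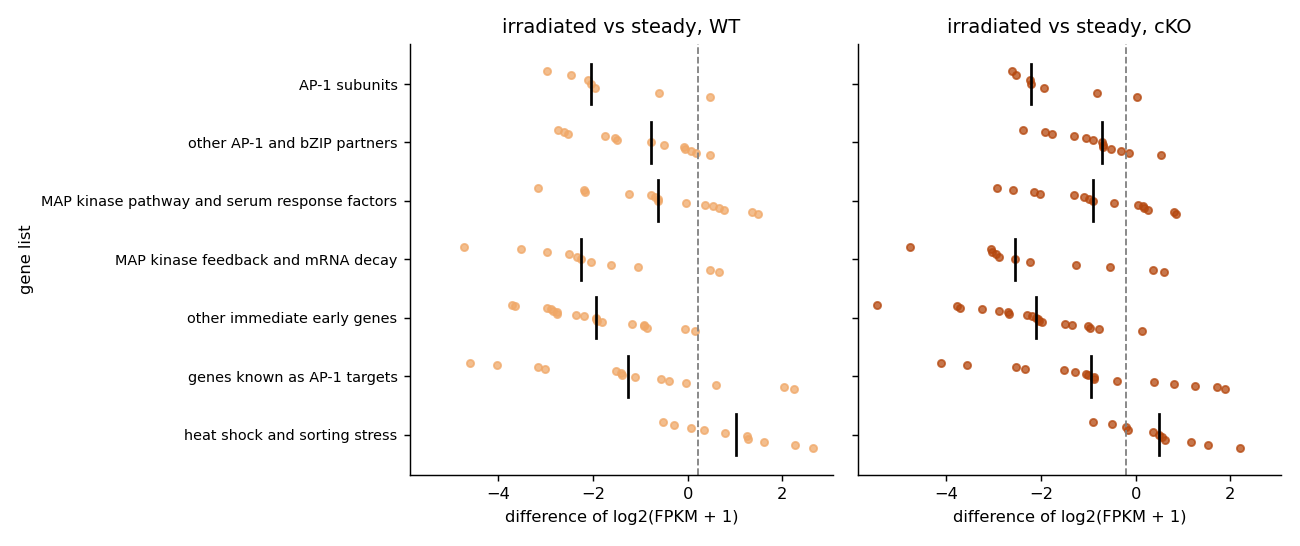
Difference of log2(FPKM + 1), irradiated minus steady state, for genes whose higher library reached 5 FPKM (7 of the 8 AP-1 subunit genes and the kept genes of 6 lists), wild type on the left and cKO on the right; black bars are medians and the dashed line is the median of all genes. Feedback and other immediate early genes have medians of -2.26 and -1.94 in the wild type, while the heat shock list lies at 1.03.

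The genes with profiles closest to each member were taken by Euclidean distance between log2(FPKM + 1) values in the 4 libraries, each gene centred on its own mean, among 5023 other genes with at least 10 FPKM in their highest library. With 4 libraries many genes lie close, and these are descriptions. Jun was closest to Dusp1 (distance 0.302), then to Slc27a1. Fos was closest to another phosphatase gene of the MAP kinase pathway, Dusp6 (0.0937), which had 26.0 and 30.3 FPKM before irradiation and 2.44 and 4.32 FPKM at day 12, then to Plcg2 and Trp53i11. Junb was closest to Vgll4 and Tmem40 (both 0.108) and Jund to Rps6ka1 (0.137). Atf3 was closest to Srsf11 (0.00615), with 31.0 and 30.9 FPKM and then 43.6 and 31.2 FPKM, and Batf to Arf2 (0.0426). Among the subunits themselves, the closest pair was Fosb and Fosl2 (0.211, rank 10 from Fosb). No nearest genes were taken for them because both lay under 10 FPKM. Both were below 1 FPKM after irradiation, where log2(FPKM + 1) shrinks differences. As ratios they stood apart in the wild type, with Fosl2 68.1-fold and Fosb 15.0-fold lower after irradiation. Jund ranked 16 from Jun, and Junb ranked 310 and Jun 143 from Fos.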

How the data were processed

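RNA-seq of 4 libraries was analysed, 1 per group as the labels give them; ATAC-seq (2 samples) was not analysed here. The deposited values are FPKM per gene made by the authors, per the file headers. The submitters' processing notes name mm10, Bowtie, BWA 0.7.12-r1039, MACS2 2.1.0 and HOMER for the whole series; which of these made the FPKM, the counting and any use of strand are not given in the sources used here. Symbols were joined to 30231 identifiers. Sequences and positions are from RefSeq (GRCm38.p6), where all 8 members matched.

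Differences are log2(FPKM + 1), which understates changes of low genes. A gene was kept where its higher library reached 5 FPKM, and set against a 2-fold threshold. Whole reads were recovered as the smallest whole numbers that fit a gene's 4 values, given library sizes of 22146433 to 26031985. Every gene was solved within 0.05 of whole reads (475 were at 0 in all libraries), members within 0.00066. The gene-model lengths found equalled the annotated ones for 12 of 13 mitochondrial genes and for Junb (1840 bases) and Jund (2878 bases). For Jun the length found was 3189 bases, against an annotated span of 3187 bases. The smallest solution may understate the reads of a gene by a whole multiple, and in the irradiated wild type the recovered reads (24742755) exceeded the implied library size. They gave Clopper-Pearson intervals for levels and conditional exact binomial intervals for ratios. Reads are not independent molecules. The scripts (Python 3.11.15, scipy 1.17.1) were tested on simulated data.

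The members and 16 gene lists were chosen with earlier results of these data known. From a list, genes were named among the 4 with the largest difference in a comparison; Lmna and Hspa1a were chosen after their values were seen. For likeness, the 3 nearest genes per member were taken. Alternatives were 2 other pseudocounts, 3 minimum levels, 4 scalings, centring on the median of all genes and a 1.5-fold threshold. Some genes that the rule names are not reported here.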

Additional observations from a re-analysis of the deposited data

Results flagged for a closer look

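The difference between cKO and wild type in Fosb went opposite ways in the 2 conditions, beyond counting error in each. At steady state Fosb was lower in the cKO library (6.16 against 7.25 FPKM, a difference of -0.20 in log2(FPKM + 1)), and after irradiation it was higher (0.867 against 0.485 FPKM, 0.33). The difference of the differences was 0.54 and was not tested, since each group holds 1 library. The median of this quantity over 7772 genes was -0.40. Fosb lay below the minimum of 5 FPKM in both irradiated libraries, so its difference there was not among those counted. Its range over 7 alternatives was 0.23 to 0.99, and leaving out the 50 most abundant genes brought the steady-state difference to -0.03.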

How the results depend on the processing

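No paired analysis was possible because each group holds 1 library with no replicate numbers, and no library could be left out of a comparison. Jun was the member called higher in the cKO at steady state under all 11 alternatives. The count of members called higher in the irradiated cKO was 0 and became 1 (Fos) without the 50 most abundant genes and the rest rescaled, scaled to recovered read totals, centred on the median of all genes, and with a 1.5-fold threshold. Jun, Junb, Jund and Fos were called lower after irradiation in both genotypes under all alternatives. Fosb left the calls at a minimum of 20 FPKM and, in the cKO, with a pseudocount of 5. Fosl2 joined them at a minimum of 1 FPKM or none, and Batf at 1.5-fold. Over all alternatives, counts of all genes called higher and lower ran from 25 to 127 and 141 to 394 for genotype at steady state (46 and 193 as reported), 134 to 812 and 29 to 1562 after irradiation (284 and 66), 675 to 2960 and 536 to 2424 for irradiation in the wild type (1400 and 1401), and 457 to 2065 and 612 to 2680 in the cKO (762 and 1673). With other scalings the share called higher among called genes ran from 17.1% to 34.6% (19.2% as reported), 81.1% to 94.2% (81.1%), 26.8% to 76.6% (49.98%) and 22.9% to 70.6% (31.3%) in the same order. Medians of all genes under irradiation ran from -0.15 to 0.77 in the wild type and from -0.37 to 0.46 in the cKO. Of 224 member differences under alternatives 105 moved beyond their counting interval, and no called one turned. Depth limited Fosl2 after irradiation (13 and 22 reads).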
